A study of Mus musculus with 17 samples.

Results

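The effect of losing *Nat10* on the transcriptome was compared between pre-leptotene spermatocytes (PreL) and leptotene and zygotene spermatocytes (LZ), gene by gene, as the interaction of genotype and stage. The comparison used 11 of the 17 RNA-seq libraries of the series, namely every PreL and LZ library: 3 wild-type (WT) and 3 *Nat10*-SKO libraries of PreL, and 2 WT and 3 *Nat10*-SKO libraries of LZ. All mice were C57BL/6 by the labels and C57BL/6J by the study's methods. The *Nat10*-SKO mice carried 1 floxed and 1 deleted *Nat10* allele together with Stra8-GFPCre, a Cre knock-in that is active in germ cells before meiosis and removes exons 4 and 5. WT was labelled as wild type with no Cre named, so the Cre allele and the loss of *Nat10* cannot be told apart. Cells were sorted by FACS on Hoechst and propidium iodide staining, and RNA was copied from oligo(dT) and amplified by Smart-seq2. No age is given in the sources used here, and nothing says whether libraries of a group came from separate animals, so the p-values measure only the spread between these libraries, which may be technical.

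NAT10 is the enzyme that places N4-acetylcytidine on RNA, including 18S ribosomal RNA, transfer RNA and messenger RNA. During the steps compared here, WT germ cells finish their last DNA replication in PreL, then form meiotic double-strand breaks in leptotene and begin to synapse homologous chromosomes in zygotene. Many genes for later steps, such as pachytene recombination, the sperm flagellum and the acrosome, begin to be transcribed over this window, while the X chromosome is silenced later, in pachytene.

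The deposited counts were calibrated with the ERCC spike-in. They were then rescaled over the 11 libraries with size factors from the median of ratios, and these rescaled values are the levels given below. A genotype effect is SKO minus WT on the log2(rescaled value + 10) scale, which understates the change of genes with low values, and the interaction is the effect in LZ minus the effect in PreL. A difference was called where its size on the log2 scale exceeded 1 and its p-value, adjusted by Benjamini-Hochberg over the 13625 genes tested, was below 0.05. Adjusted p-values are from limma-trend unless another tool is named, and genes were tested where the recovered reads averaged 10 or more per library.

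Depth was 10574858 to 11268541 recovered reads in the PreL libraries, 13666762 and 13820953 in WT LZ, and only 5812380 to 7609420 in SKO LZ, where 1 read was worth 4.6 to 7.12 on the rescaled scale against 1.79 to 2.95 elsewhere. Floors of 3 reads per library, used below for genes near 0, cover counting error only. The 100 most abundant genes held 28.2% to 33.7% of the reads in SKO LZ and 11.5% to 11.6% in WT LZ. Other libraries stood apart as well. WT LZ replicate 3 held more late spermatocyte RNA than replicate 2 (12540 against 7181 RPM over the list used here). Sertoli cell genes reached 2145 and 2445 RPM in SKO PreL replicates 1 and 2 and 3115 RPM in WT LZ replicate 2. They also held 1399, 1979 and 1565 RPM in SKO LZ replicates 1, 2 and 3 and 764.5 RPM in WT LZ replicate 3. The lowest levels were 165.1 RPM in SKO PreL replicate 3 and 273.3 to 327.2 RPM in WT PreL. Results are also given without WT LZ replicate 3, or without WT LZ replicate 2 and SKO PreL replicates 1 and 2. Both of these settings kept every SKO LZ library.

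*Nat10* itself (chromosome 2, 103721256 to 103761270, minus strand, GRCm38/mm10) had values of 1006, 1094 and 731.3 in WT PreL replicates 1, 2 and 4, and 414.9, 370.8 and 311.6 in SKO PreL replicates 1, 2 and 3. In LZ the values were 696.1 and 948.4 in WT replicates 2 and 3, and 320.6, 239.1 and 332.4 in the SKO replicates. Every SKO library lay below every WT library of its stage. The effect was -1.33 in PreL (standard error 0.24, adjusted p = 0.00198) and -1.43 in LZ (0.27, adjusted p = 0.000576), and the interaction of -0.10 ± 0.36 (SE, adjusted p = 0.844) did not pass the test. Exons 4 and 5 could not be separated from the remaining exons in these gene-level counts.

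Of the 13625 genes tested, 2830 (20.8%) had a more negative effect in LZ than in PreL and 1589 (11.7%) a more positive one. In either direction 4419 genes (32.4%) were called. Over all genes tested the median interaction was -0.30, with median effects of 0.0 in PreL and -0.07 in LZ. The balance between the directions depended on the scaling: on the ERCC-calibrated values without rescaling, where the median interaction was -1.14, 6034 genes (44.3%) were more negative and 706 (5.18%) more positive. Without WT LZ replicate 3 the more negative genes numbered 1868 (13.9% of those tested).

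**Figure D1:**
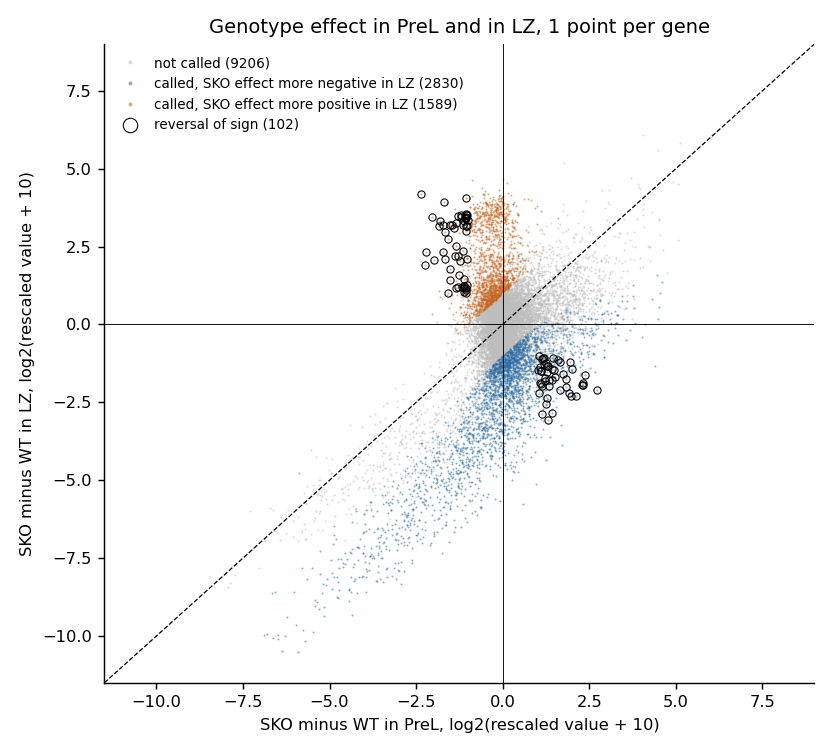
Genotype effect (SKO minus WT, log2 of rescaled value + 10) in PreL on the x axis and in LZ on the y axis for 13625 genes. The dashed line marks equal effects: the 2830 genes called more negative in LZ lie below it, the 1589 called more positive above it, and open circles mark the 102 reversals of sign.

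Most interactions came from an effect in LZ where PreL had none that passed. Of the 2830 more negative genes, 1792 were called lower in LZ only and 432 were called lower in both stages, with the larger drop in LZ. A further 233 were called higher in PreL only, and 323 were called in neither stage. The 1589 more positive genes held 1133 that were called higher in LZ only, 43 that were lower in PreL only and 355 that were called in neither stage. As background, SKO was called lower for 6.86% and higher for 6.6% of genes in PreL, and lower for 23.8% and higher for 13.1% in LZ.

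The estimated difference between the stages within each genotype describes the same genes from the other side. For 1825 (64.5%) of the more negative genes, the LZ level in WT was above the PreL level by more than 1 on the log2 scale, while in SKO the stages lay within 1 of each other. For 237 more negative genes the WT estimate was above 1 and the SKO estimate below -1, and for 333 the WT stages lay within 1 and the SKO estimate was below -1. Among the more positive genes, 454 had a WT estimate below -1 and a SKO estimate above 1, 395 had WT stages within 1 and a SKO estimate above 1, and 307 had a WT estimate below -1 and SKO stages within 1. These classes rest on estimates, and the single stage differences were not tested.

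**Figure D2:**
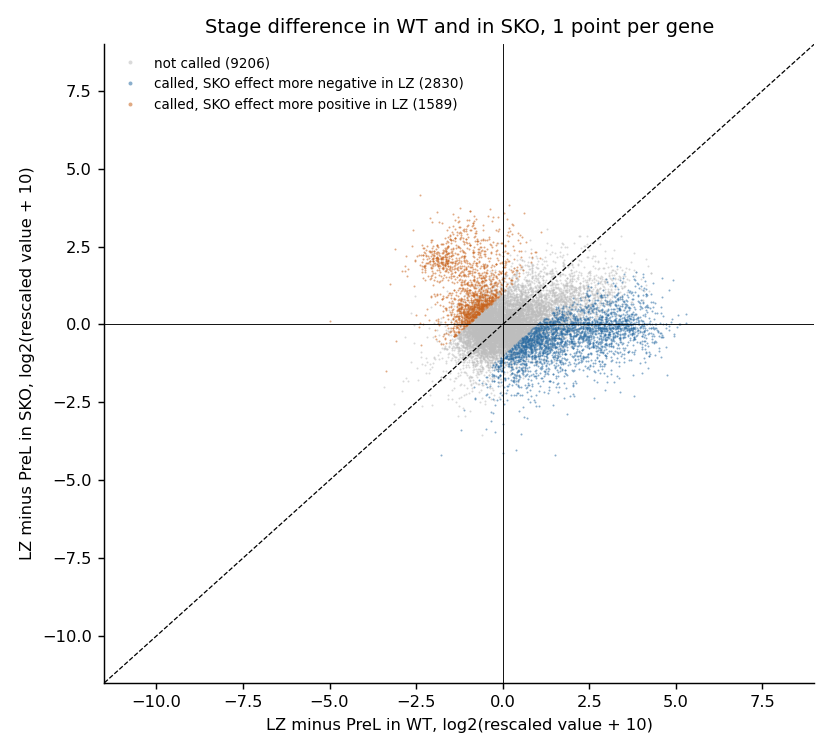
Estimated difference between the stages (LZ minus PreL, log2 of rescaled value + 10) in WT on the x axis and in SKO on the y axis, 1 point per gene. The more negative genes form a band along the horizontal axis, with 1825 of the 2830 above 1 in WT and within 1 in SKO, and the more positive genes lie above the dashed line of equal differences.

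Among genes with a mean of 100 or more reads and no overlap in LZ, the most negative interactions included flagellar genes. Their WT levels were higher in LZ than in PreL. *Dnali1* (chromosome 4, 125055338 to 125065703), a light intermediate chain of axonemal dynein, had values of 165.4, 210.2 and 20.64 in WT PreL and 4.939, 25.49 and 49.2 in SKO PreL. The LZ values were 1518 and 4065 in WT and 0, 13.79 and 5.449 in SKO. The PreL groups overlapped, and all SKO LZ libraries lay below both WT LZ libraries, with at most 3 reads each, so that SKO LZ was at least 163-fold lower. The interaction was -5.59 (SE 1.11, adjusted p = 0.0019). *Rsph6a* (chromosome 7, 19054690 to 19074447), a radial spoke protein of the flagellum, had 37.36, 42.61 and 35.39 in WT PreL, 2.47, 2.318 and 19.13 in SKO PreL, 662 and 2363 in WT LZ, and 0 in all 3 SKO LZ libraries. The LZ level was at least 88.1-fold lower in SKO, and the interaction was -5.43 (SE 0.79, adjusted p = 0.000216). *Qrich2* (chromosome 11, 116441325 to 116466241), which is needed for the sperm flagellum, was lower in SKO already in PreL, with 101.4, 247.1 and 118 in WT against 22.23, 9.27 and 2.733 (effect -2.95, adjusted p = 0.00187). It stood at 1794 and 5778 in WT LZ and at 0 in every SKO LZ library, at least 220-fold lower, with an interaction of -5.38 (SE 0.79, adjusted p = 0.000229).

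Genes outside the flagellum reached similar interactions. *Phkg2* (chromosome 7, 127573340 to 127583307), the testis and liver catalytic subunit of phosphorylase kinase, had an effect of -0.09 in PreL and -5.66 in LZ, where the values were 819.9 and 1737 in WT and 0, 32.19 and 21.8 in SKO. Its interaction was -5.57 (SE 0.83, adjusted p = 0.000262), and that of *4930525F21Rik* was -5.35 (SE 0.93, adjusted p = 0.000753). Exons of *Dnali1*, *Phkg2* and *4930525F21Rik* overlap those of *Gnl2*, *Ccdc189* and *Galk2*, and the libraries keep no strand, so reads of such pairs cannot be told apart.

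Gene lists put these cases in order. Of 28 axoneme and flagellum genes tested, 26 (92.9%) were more negative in LZ and none was more positive, against 20.8% and 11.7% over all genes. Median effects were -1.73 in PreL and -5.50 in LZ. The median interaction was -3.56, against -0.30 over all genes. *Spag6*, *Spag16* and *Spag8*, proteins of the central pair and the sperm tail, had interactions of -4.63, -4.68 and -5.11. *Spag6* had 344.2, 877.8 and 303.7 in WT PreL, 69.15, 16.22 and 2.733 in SKO PreL, 4413 and 14320 in WT LZ, and 0, 32.19 and 10.9 in SKO LZ. It was therefore lower in SKO in both stages without overlap, and the WT level was the higher of the stages in LZ. *Spag8* did not pass with edgeR (adjusted p = 0.0599) or DESeq2 (adjusted p = 0.0854). Without WT LZ replicate 3, fewer members were called, as over all genes. The median interaction was then -2.92, against -0.25 over all genes.

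Late spermatocyte genes followed, with 18 of 24 (75%) more negative and none more positive, against 20.8% and 11.7% over all genes. The median interaction was -2.16. Without WT LZ replicate 3 fewer were called, as over all genes, and the median was -1.44, against -0.25 over all genes. *Adam3*, a sperm membrane protein needed for migration into the oviduct, had 765.8, 1358 and 707.7 in WT PreL and 0, 0 and 8.199 in SKO PreL, at least 126-fold lower. It had 4804 and 13440 in WT LZ and 7.123, 0 and 0 in SKO LZ, at least 531-fold lower, and an interaction of -3.17 (SE 0.70, adjusted p = 0.0036). With both SKO groups at the floor, that interaction measures the stage difference of WT, and it did not pass with edgeR (adjusted p = 0.272), DESeq2 (adjusted p = 0.0915) or a pseudocount of 1. *Spata16*, a Golgi protein of acrosome formation, had an effect of -4.29 in PreL and -8.22 in LZ (interaction -3.93, adjusted p = 0.00398, 0.0747 with edgeR). Over all genes, 281 of the 2830 more negative genes stayed at 3 reads or fewer in all 6 SKO libraries, and 485 did so in all 3 SKO LZ libraries.

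Spermatid genes were low in SKO at both stages, so their interactions rest on values near the floor. Their median effects were -4.63 in PreL and -5.60 in LZ, with a median interaction of -0.97 against -0.30 over all genes. Of 25 genes 6 (24%) were more negative and 1 (4%) more positive, against 20.8% and 11.7% over all genes. With genes at the floor set to 3 reads, the median interaction was -0.08. That value is limited by the floor, which was 13.8 to 21.4 in SKO LZ and 7.0 to 8.2 in SKO PreL. In SKO LZ 17 of the 25 lay at the floor. *Prm1*, *Prm2* and *Tnp2*, which pack sperm DNA, were not called, while *Acr*, the acrosomal protease acrosin, had 58.7, 116.5 and 47.18 in WT PreL, 0 in each SKO PreL library, 1842 and 5121 in WT LZ and 0, 0 and 10.9 in SKO LZ. Its levels were at least 9.86-fold lower in PreL and at least 203-fold lower in LZ, and the interaction of -4.93 (adjusted p = 0.000351) did not pass with edgeR (adjusted p = 0.825) or DESeq2 (adjusted p = 0.244). *Dkkl1*, an acrosomal protein, was also more negative (-4.17, SE 0.63, adjusted p = 0.000293), with 12420 and 28490 in WT LZ against 64.11, 55.17 and 54.49 in SKO LZ.

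Genes of other lists moved mostly the same way. *Fbp1*, a gluconeogenic enzyme, was at least 1110-fold lower in SKO LZ, with 9584 and 28400 in WT and 0, 9.196 and 5.449 in SKO. Its effect in PreL was already -5.72, and the interaction was -4.45 (adjusted p = 0.000783, 0.0751 with edgeR). Of 18 genes listed as metabolic isozymes of the testis, 7 (38.9%) were more negative and 1, *Gpi1*, more positive. Transcripts of *Gpi1* hold the shared sequence described below. Of 21 ADAM family genes 10 (47.6%) were more negative and 1, *Adam28*, more positive. Of 269 RIKEN transcripts from a series of testis cDNAs, 123 (45.7%) were more negative and 6 (2.23%) more positive. Over all genes the shares were 20.8% and 11.7%. Without WT LZ replicate 3 fewer were more negative in each of these lists, as over all genes. Late germ cell RNA itself differed between the groups. Summed over the lists, spermatid genes held 1977 to 2127 RPM in WT LZ and 14.0 to 15.48 RPM in SKO LZ, and 829.5 to 1426 against 20.84 to 28.66 RPM in PreL. In sorted bulk samples, fewer cells of a later stage and less RNA per cell cannot be told apart, and their part in these interactions was not tested.

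**Figure D3:**
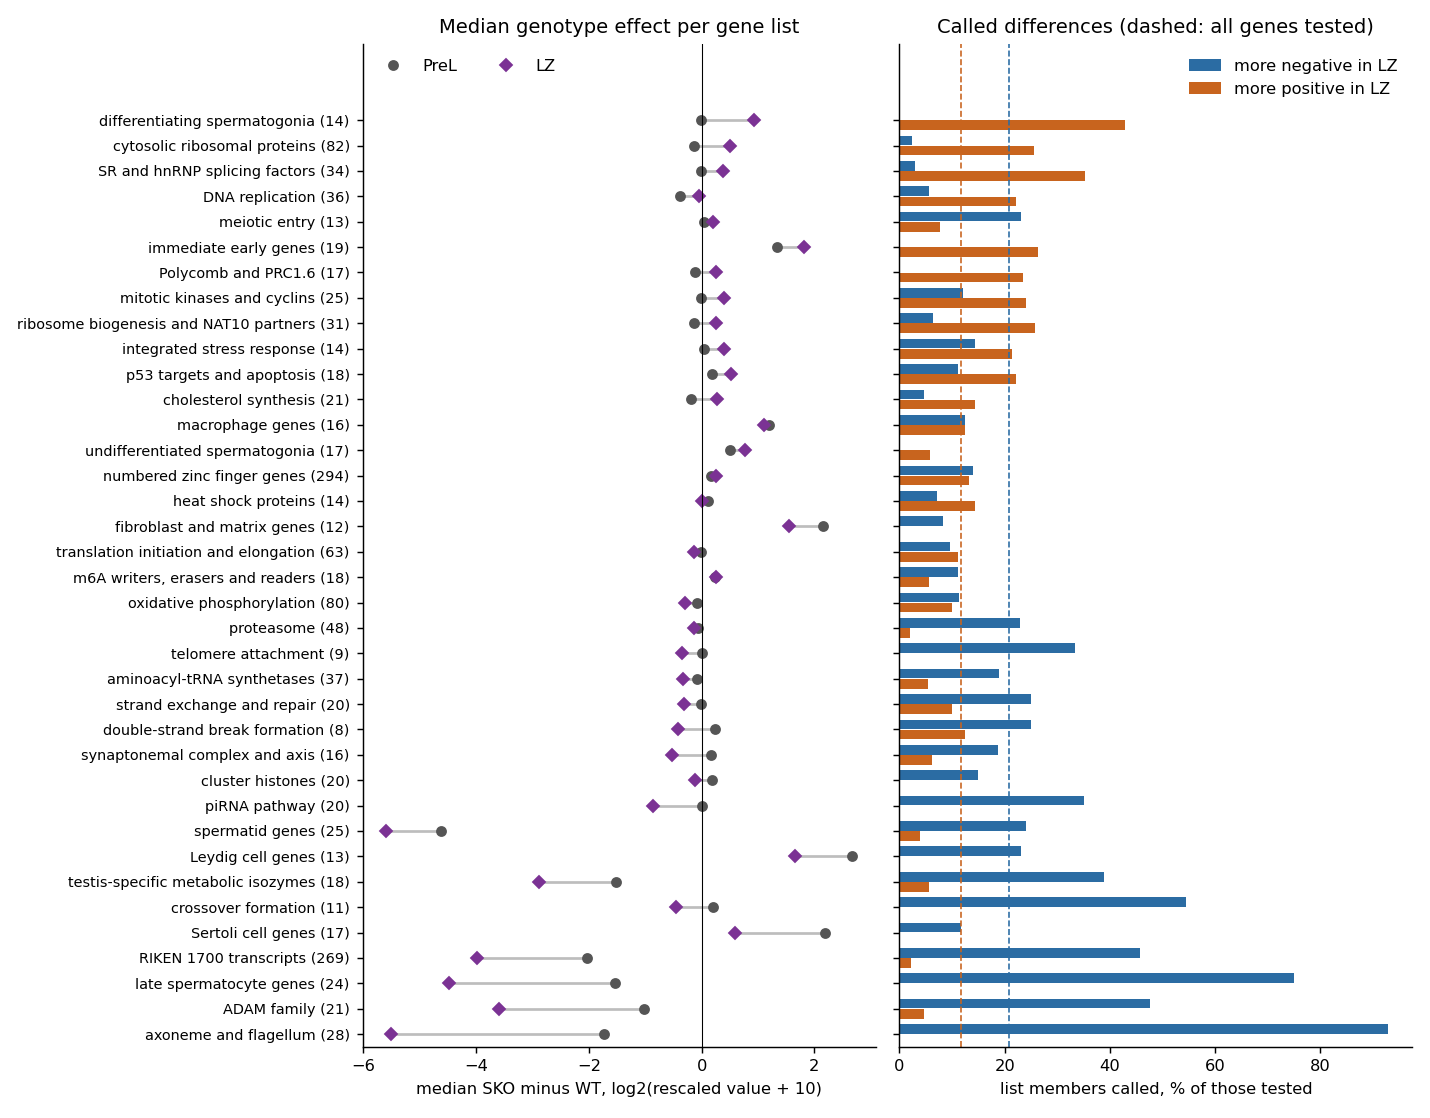
Left, median genotype effect (SKO minus WT, log2 of rescaled value + 10) of each gene list with 8 or more genes tested in PreL (circles) and LZ (diamonds), with the number of genes tested in brackets. Right, the percentage of tested members called more negative (blue) or more positive (orange) in LZ, with dashed lines at 20.8% and 11.7%, the shares over all genes. Axoneme genes show the widest gap (median -1.73 against -5.50).

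Genes of meiotic prophase were called in both directions, and the axis, break formation, strand exchange and meiotic entry lists lay near the 20.8% of all genes that were more negative. In the synaptonemal complex and axis list, 3 of 16 (18.8%) were more negative and 1 more positive (median interaction -0.63). *Syce1*, a central element protein, had 13530, 12370 and 10060 in WT PreL and 9646, 8248 and 14260 in SKO PreL, which overlapped. WT LZ had 13760 and 25450 against 3840, 4993 and 5275 in SKO LZ, which did not. Its interaction was -1.81 (SE 0.36, adjusted p = 0.00195). *Hormad2*, an axis protein that marks unsynapsed chromosomes, had an interaction of -2.11 (adjusted p = 0.00228), and that of *Sycp2*, an axial element protein, was -1.38 (adjusted p = 0.0098, 0.0594 without WT LZ replicate 3). *Trip13*, the ATPase that removes HORMA proteins from synapsed axes, had the opposite interaction of 1.19 (adjusted p = 0.000351), which was 0.28 and not called on values without rescaling. *Sycp1*, *Sycp3*, *Dmc1*, *Prdm9* and *Stra8* were not called. Among 13 meiotic entry genes, 3 (23.1%) were more negative and 1 more positive. *Prss50*, a testis protease, had 5315, 3613 and 3170 in WT PreL, 6571, 5752 and 10830 in SKO PreL, 5377 and 4458 in WT LZ, and 1752, 2290 and 2403 in SKO LZ. SKO was thus the higher group in PreL and the lower one in LZ, with an interaction of -2.11 (SE 0.36) and a PreL effect of 0.91 that was not called. *Rbm46*, an RNA-binding protein needed to enter meiosis, had -1.32 (SE 0.25), and *Ccna2*, the S phase cyclin A2, had 1.47 (SE 0.21), which was 0.57 and not called without rescaling.

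*Spo11* (chromosome 2, 172977700 to 172993576), the enzyme that makes meiotic double-strand breaks, had 288.2, 627.8 and 76.67 in WT PreL and 471.7, 377.8 and 975.7 in SKO PreL. In LZ it stood at 2006 and 4136 in WT and at 705.2, 593.1 and 632.1 in SKO. PreL libraries of the 2 genotypes overlapped, while LZ libraries did not. The effects were 1.16, not called, and -2.15, called, with an interaction of -3.31 (SE 0.85, adjusted p = 0.0083, 0.0507 without WT LZ replicate 3). In the break formation list 2 of 8 (25%) were more negative and 1 more positive. The more positive member was *Mei4*, a partner of the break machinery, at 1.51 (adjusted p = 0.000748), which was 0.63 and not called without rescaling.

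Of the crossover genes 6 of 11 (54.5%) were more negative and none more positive, against 20.8% and 11.7% over all genes. The median interaction was -1.46. Without WT LZ replicate 3 fewer were called, as over all genes, and the median was -1.17, against -0.25 over all genes. *Cntd1*, a cyclin-like protein that limits crossover sites, had 675.1, 619.3 and 353.9 in WT PreL and 185.2, 268.8 and 347.1 in SKO PreL. In LZ its values were 2126 and 3136 in WT and 85.48, 119.5 and 114.4 in SKO, and the interaction was -3.48 (SE 0.47, adjusted p = 0.000124), although its exons overlap *Becn1* and *Coa3*. *Mus81*, a structure-specific nuclease, was more negative (-1.84), as was *Msh4* (-1.87, adjusted p = 0.0303). The call of *Msh4* was lost without WT LZ replicate 3 (adjusted p = 0.0963), SKO LZ replicate 1 (0.0729), SKO PreL replicate 3 (0.0618) or WT PreL replicate 2 (0.0625).

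In strand exchange and repair, 5 of 20 genes (25%) were more negative and 2 (10%) more positive, against 20.8% and 11.7% over all genes. *Hsf2bp*, which brings BRCA2 to meiotic breaks, was more negative at -2.24, and *Rad51ap2* was higher in SKO PreL alone (effects 1.74 and -0.17, interaction -1.91). *Mcm8*, a helicase of homologous recombination, had an effect of 2.60 in LZ and an interaction of 2.27 (SE 0.28, adjusted p = 5.55e-05), and 1.36 without rescaling. Telomere attachment genes were more negative for 3 of 9 (33.3%), among them *Ccdc155*, the KASH5 protein that links telomeres to dynein (-3.17, SE 0.50), and *Spdya*, an activator of CDK2 at telomeres (-2.12). In the piRNA pathway 7 of 20 (35%) were more negative and none more positive. Fewer were more negative without WT LZ replicate 3, as over all genes. *Tdrd6*, a tudor protein of the chromatoid body, had 4295 and 11940 in WT LZ against 7.123, 18.39 and 16.35 in SKO (interaction -3.51), and *Mael*, a transposon silencing factor, had an interaction of -1.43 (SE 0.30).

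Housekeeping lists held called genes in both directions, at or below the shares of 20.8% and 11.7% over all genes. The exceptions were more negative proteasome genes (22.9%) and more positive cholesterol synthesis genes (14.3%). Without rescaling 44.3% of all genes were more negative and 5.18% more positive, so the counts given without rescaling moved with this shift. Of 80 oxidative phosphorylation genes, 9 (11.2%) were more negative and 8 (10%) more positive, which became 45 and 1 without rescaling and 4 and 11 without WT LZ replicate 3. *Uqcrc1*, a core subunit of complex III, had 7191, 4770 and 3710 in WT PreL and 7927, 7551 and 8470 in SKO PreL. It stood at 11180 and 15210 in WT LZ and at 1767, 2538 and 2523 in SKO LZ, so SKO was the higher group without overlap in PreL, where the effect of 0.66 was not called, and the lower group in LZ. The interaction was -3.20 (SE 0.33, adjusted p = 1.15e-05). In the proteasome list 11 of 48 were more negative and 1 more positive, and 7 were more negative without WT LZ replicate 3. *Psma8*, the meiotic alpha subunit, had an interaction of -1.88, and *Psmb11*, the thymic beta subunit, was the more positive member. Aminoacyl-tRNA synthetases gave 7 more negative (18.9%) and 2 more positive of 37, translation factors 6 and 7 of 63 (31 and 1 without rescaling), and cluster histones 3 and none of 20. Cholesterol synthesis genes gave 1 more negative and 3 more positive of 21, and 5 and none without rescaling. Writers, erasers and readers of N6-methyladenosine gave 2 and 1 of 18. Mitochondrially encoded genes were not analysed here.

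Stress genes were called in both directions in small lists, beside 20.8% more negative and 11.7% more positive over all genes. The integrated stress response list gave 2 (14.3%) more negative and 3 (21.4%) more positive of 14. *Ddit3*, the CHOP factor of the integrated stress response, had 232.1, 397.7 and 230 in WT PreL and 489, 465.8 and 489.2 in SKO PreL, with no overlap. Its LZ values were 1249 and 2700 in WT and 171, 349.4 and 376 in SKO. The effects were 0.77, not called, and -2.66, called, and the interaction was -3.43 (SE 0.53, adjusted p = 0.000321), with exons that overlap *Gm4189* and *Mars*. In the same list *Atf5*, another stress factor, had the opposite interaction of 2.38 (adjusted p = 0.00467), and *Asns*, asparagine synthetase, had -1.44, or -0.91 and no call without WT LZ replicate 2. Of 14 heat shock genes 1 (7.14%) was more negative and 2 (14.3%) more positive, or 6 and 2 without rescaling. *Dnajb1* had -1.70, *Hspa1b* 2.75 and the mitochondrial chaperonin *Hspe1* 2.11. Among p53 targets and apoptosis genes 2 of 18 (11.1%) were more negative and 4 (22.2%) more positive, or 5 and 1 without rescaling. *Tnfrsf10b*, the death receptor for TRAIL, had 3.90 (SE 0.24). Over all genes, 44.3% were more negative and 5.18% more positive without rescaling. For *Hspa1b*, *Hspe1*, *Tnfrsf10b* and *Atf5* the call held without rescaling.

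The more positive genes were divided at an LZ effect of 2.5, a value chosen after the data were seen. In 491 of the 1589 the LZ effect was above it, with medians of -0.33 in PreL and 3.37 in LZ, and in the other 1098 the median LZ effect was 1.19. The 491 genes held 43.5%, 32.2% and 36.5% of all reads in SKO LZ replicates 1, 2 and 3 and 4.23% and 4.34% in WT LZ replicates 2 and 3. In PreL they held 10.6% to 14.4% in WT and 11% to 12.3% in SKO, which overlapped. These shares describe genes chosen on the same values.

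Transcripts of the 491 genes often shared a sequence. Among 20-base sequences found in at least 10% of them, the one that set them furthest apart from genes not called is shown here, in lower case, in the sense of the transcript:

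shared 20 bases: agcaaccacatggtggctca

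reverse complement: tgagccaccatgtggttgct

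From general knowledge these letters match the B2 family, a short interspersed retrotransposon with many copies in the mouse genome, but no repeat annotation was used here to check the match. Counting up to 2 mismatches, 158 of 470 genes with GENCODE transcripts (33.6%) held it in the sense strand and 22.1% in the antisense strand. The sense share was 8.2% in the other more positive genes, 3.9% in the more negative genes, 4.4% in genes not called and 5.7% over all genes tested. Among more positive genes it was 40.3% for LZ effects from 3 to 3.5, 39.9% from 3.5 to 4 and 5.4% from 0.5 to 1, but 20.7% from 4 to 4.5 (29 genes) and 0 of 3 genes above 4.5. Median transcript length was 1922 bases in the 491 genes and 1733 in the other more positive genes. The sequence was chosen on these values, so the shares are a description, and the part of such elements in the counts was not tested. Without every gene that held it on either strand, 2483 genes were more negative and 1257 more positive.

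Among genes with a mean of 100 or more reads and no overlap in LZ, those with the most positive interactions had LZ effects above 2.5. *Ptk6* (chromosome 2, 181193721 to 181202789), a cytoplasmic tyrosine kinase, had 357.5, 397.7 and 224.1 in WT PreL and 101.3, 220.2 and 199.5 in SKO PreL. In LZ it had 39.47 and 109.2 in WT and 2109, 1605 and 1951 in SKO. SKO was the lower group in PreL and the higher one in LZ without overlap, and the PreL effect of -0.90 was not called. The interaction was 5.52 (SE 0.57, adjusted p = 1.02e-05). *Gje1* (chromosome 10, 14715623 to 14718214), a connexin-like gene, had 784.5, 1111 and 1121 in WT PreL, 607.5, 563.2 and 374.4 in SKO PreL, 260.1 and 315.3 in WT LZ, and 5969, 4377 and 4610 in SKO LZ. Its interaction was 5.02 (SE 0.33, adjusted p = 1.42e-06), and its PreL effect of -0.96 was not called. *F630042J09Rik*, a lincRNA on chromosome 13, had an interaction of 5.52 (SE 0.88, adjusted p = 0.000397) and held the shared sequence in antisense. *Ptk6* and *Gje1* did not hold it on either strand.

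Lists for growth, RNA processing and the cell cycle held more members called more positive than more negative on rescaled values. Over all genes 11.7% were more positive and 20.8% more negative. Leaving out the rescaling shifted the median of all genes by -0.83, so that 44.3% of all genes were more negative and 5.18% more positive, and the counts of these lists moved with it. Of 82 cytosolic ribosomal protein genes 21 (25.6%) were more positive and 2 more negative, with a median interaction of 0.68, which became 3 and 10 with a median of -0.23, against -1.14 over all genes, without rescaling. *Rpl38* had 19130, 23890 and 22490 in WT PreL, 13420, 14130 and 12280 in SKO PreL, 11730 and 14500 in WT LZ, and 31460, 32730 and 31750 in SKO LZ. The SKO libraries thus lay below all WT libraries in PreL and above them in LZ, though the PreL effect of -0.71 was not called. Its interaction was 2.01 (SE 0.21, adjusted p = 9.93e-06) and 1.10 without rescaling, and *Rps21* behaved alike at 1.99 and 1.08. *Rpl7l1*, a ribosomal protein L7 like gene, had a larger interaction of 3.28 with 85550 to 140100 in SKO LZ against 9887 and 12660 in WT LZ.

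Other lists moved with the same shift of all genes. SR and hnRNP splicing factors had 12 of 34 (35.3%) more positive and 1 more negative, against none and 7 without rescaling. *Hnrnpa2b1*, an abundant hnRNP, had an interaction of 1.80, which was 0.89 and no longer called without rescaling. DNA replication genes had 8 of 36 more positive and 2 more negative, against 2 and 9. *Pola2*, the B subunit of DNA polymerase alpha, had 5854, 7332 and 7154 in WT PreL and 6994, 6123 and 9115 in SKO PreL, which overlapped, and 2962 and 3934 in WT LZ against 34520, 23610 and 29550 in SKO LZ. The interaction was 2.96 (SE 0.28, adjusted p = 5.27e-06) and 2.06 without rescaling, and its transcripts hold the shared sequence. *Gins2*, a subunit of the replicative helicase, went the other way at -1.95 (SE 0.31). Ribosome biogenesis genes and partners of NAT10 had 8 of 31 more positive and 2 more negative, against 3 and 9, with *Gar1*, a box H/ACA protein, at 2.29 and *Polr1a*, the large subunit of RNA polymerase I, at -2.06 (adjusted p = 0.0173, 0.0808 without WT LZ replicate 3).

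Mitotic kinases and cyclins had 6 of 25 (24%) more positive and 3 (12%) more negative, beside 11.7% and 20.8% over all genes. Without rescaling the counts were 3 and 7, beside 5.18% and 44.3% over all genes. *Incenp* (chromosome 19, 9872296 to 9899551), the scaffold of the chromosomal passenger complex, had 2610, 2568 and 2654 in WT PreL and 1054, 1034 and 1088 in SKO PreL. Levels in LZ were 1094 and 1281 in WT and 2757, 2727 and 2763 in SKO. Neither stage overlapped, and the effect was called in both, lower by -1.29 in PreL and higher by 1.21 in LZ, with an interaction of 2.5 (SE 0.19, adjusted p = 1.81e-06). *Aurkb*, the kinase of that complex, had effects of -1.15, called, and 0.97, not called, and an interaction of 2.12 (SE 0.29). Differentiating spermatogonia genes were more positive for 6 of 14, among them *Kit*, the stem cell factor receptor, at 1.29 (0.95 and not called without WT LZ replicate 3), but none of the 6 was called without rescaling. Of 19 immediate early genes 5 were more positive, with *Klf4* at 1.94, and 1 was more positive without rescaling. Polycomb and PRC1.6 genes had 4 of 17 more positive and none without rescaling.

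Numbered zinc finger genes were called in both directions, with 41 of 294 (13.9%) more negative and 39 (13.3%) more positive. The shares over all genes were 20.8% and 11.7%, so the list lay below the first and near the second. Without rescaling 94 and 22 were called, where 44.3% and 5.18% of all genes were. The counts also moved without WT LZ replicate 3. The widest cases were far apart: *Zfp646* had 371.4 and 1084 in WT LZ and 7.123, 13.79 and 5.449 in SKO LZ (interaction -6.09, SE 0.81), with exons that overlap *Zfp668* and *Prss53*. *Zfp870* had 606.4 and 1497 in WT LZ and 19690, 12720 and 13440 in SKO LZ (interaction 4.28, SE 0.42). Of the 39 more positive members, 19 had an LZ effect above 2.5.

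A reversal of sign needs the interaction and both stage effects to be called. In 47 genes (0.345% of those tested) SKO was higher in PreL and lower in LZ, and in 55 (0.404%) it was lower in PreL and higher in LZ. The genotypes did not overlap in either stage for 46 of the 47 and 53 of the 55, which follows largely from the calls that define a reversal, and for 26.4% of all genes tested. Estimates of opposite sign, called or not, were far more common and held for 5909 (43.4%) of the genes tested, 50% of the more negative and 81.4% of the more positive ones. Without rescaling 539 and 6 genes met the rule, and these included 47 of the 47 and 6 of the 55.

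Genes that went from higher to lower had median effects of 1.33 in PreL and -1.72 in LZ. In 21 of the 47 the WT estimate between the stages was above 1 and the SKO estimate below -1, and in 23 the WT estimate was above 1 with SKO within 1. *Nckap1* (chromosome 2, 80500512 to 80581380), a subunit of the WAVE complex that builds branched actin, had 685.7, 534.1 and 492.5 in WT PreL and 1551, 1203 and 1449 in SKO PreL. In LZ it had 1067 and 1303 in WT and 235.1, 340.2 and 130.8 in SKO. Each stage separated the genotypes, in opposite order, with effects of 1.29 and -2.37 and an interaction of -3.66 (SE 0.43, adjusted p = 3.89e-05). *Polr2a* (chromosome 11, 69733997 to 69758637), the largest subunit of RNA polymerase II, had 189.4, 127.8 and 115 in WT PreL and 261.8, 285.1 and 557.6 in SKO PreL, then 613.5 and 1077 in WT LZ and 121.1, 128.7 and 141.7 in SKO LZ. Its level was thus higher in LZ than in PreL in WT and lower in LZ than in PreL in SKO, with an interaction of -3.80 (SE 0.53, adjusted p = 0.000146).

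*Gm960* (chromosome 19, 4625734 to 4698668), now named *Top6bl*, encodes TOPOVIBL, the partner of SPO11 in break formation. It had 312.2, 201.7 and 212.3 in WT PreL and 565.5, 433.4 and 833.6 in SKO PreL. In LZ its values were 299.6 and 543.4 in WT and 92.6, 165.5 and 234.3 in SKO. No libraries of the genotypes overlapped within a stage, the effects were 1.28 (adjusted p = 0.0305) and -1.34 (adjusted p = 0.0169), and the interaction was -2.61 (SE 0.57, adjusted p = 0.00312). *Gm960* met the reversal rule in 17 of the 25 refitted alternatives and kept opposite signs in 25. *H2-Ab1*, an MHC class II chain of antigen presenting cells, was the other listed member, with effects of 1.44 and -1.08.

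*Rn45s*, which counts the 45S precursor of ribosomal RNA, had 26870, 15810 and 18620 in WT PreL and 37130, 53330 and 75640 in SKO PreL. Its LZ values were 180700 and 289100 in WT and 28660, 37470 and 29560 in SKO, so the groups changed order without overlap (effects 1.41 and -2.85, interaction -4.27, SE 0.41, adjusted p = 5.8e-06). This RNA comes from a repeated locus, so its counts are uncertain. *Ube2l6*, the conjugating enzyme of ISG15, had 82.71, 130.7 and 17.69 in WT PreL and 328.4, 417.2 and 139.4 in SKO PreL, with 672.7 and 577.3 in WT LZ and 64.11, 174.7 and 141.7 in SKO LZ. Its interaction was -4.28 (SE 0.87, adjusted p = 0.00219), or -3.23 (adjusted p = 0.0633) with neither WT LZ replicate 2 nor SKO PreL replicates 1 and 2. *Bcat2*, the mitochondrial branched-chain aminotransferase, had effects of 2.30 and -1.93, and its interaction of -4.23 fell short of the threshold in the same way (-1.77, adjusted p = 0.131). *Ptcd2*, a mitochondrial RNA processing protein, and *Gpr19*, an orphan receptor, had interactions of -3.75 (SE 0.69) and -3.14 (SE 0.53). With neither of those Sertoli-rich sets of libraries, 31 genes went from higher to lower, and only 9 of the 47 were among them. Of the 55 in the other direction, 21 were among the 37 called in that setting. Leaving out SKO PreL replicate 1 alone gave 22, and SKO PreL replicate 2 alone 26.

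**Figure D4:**
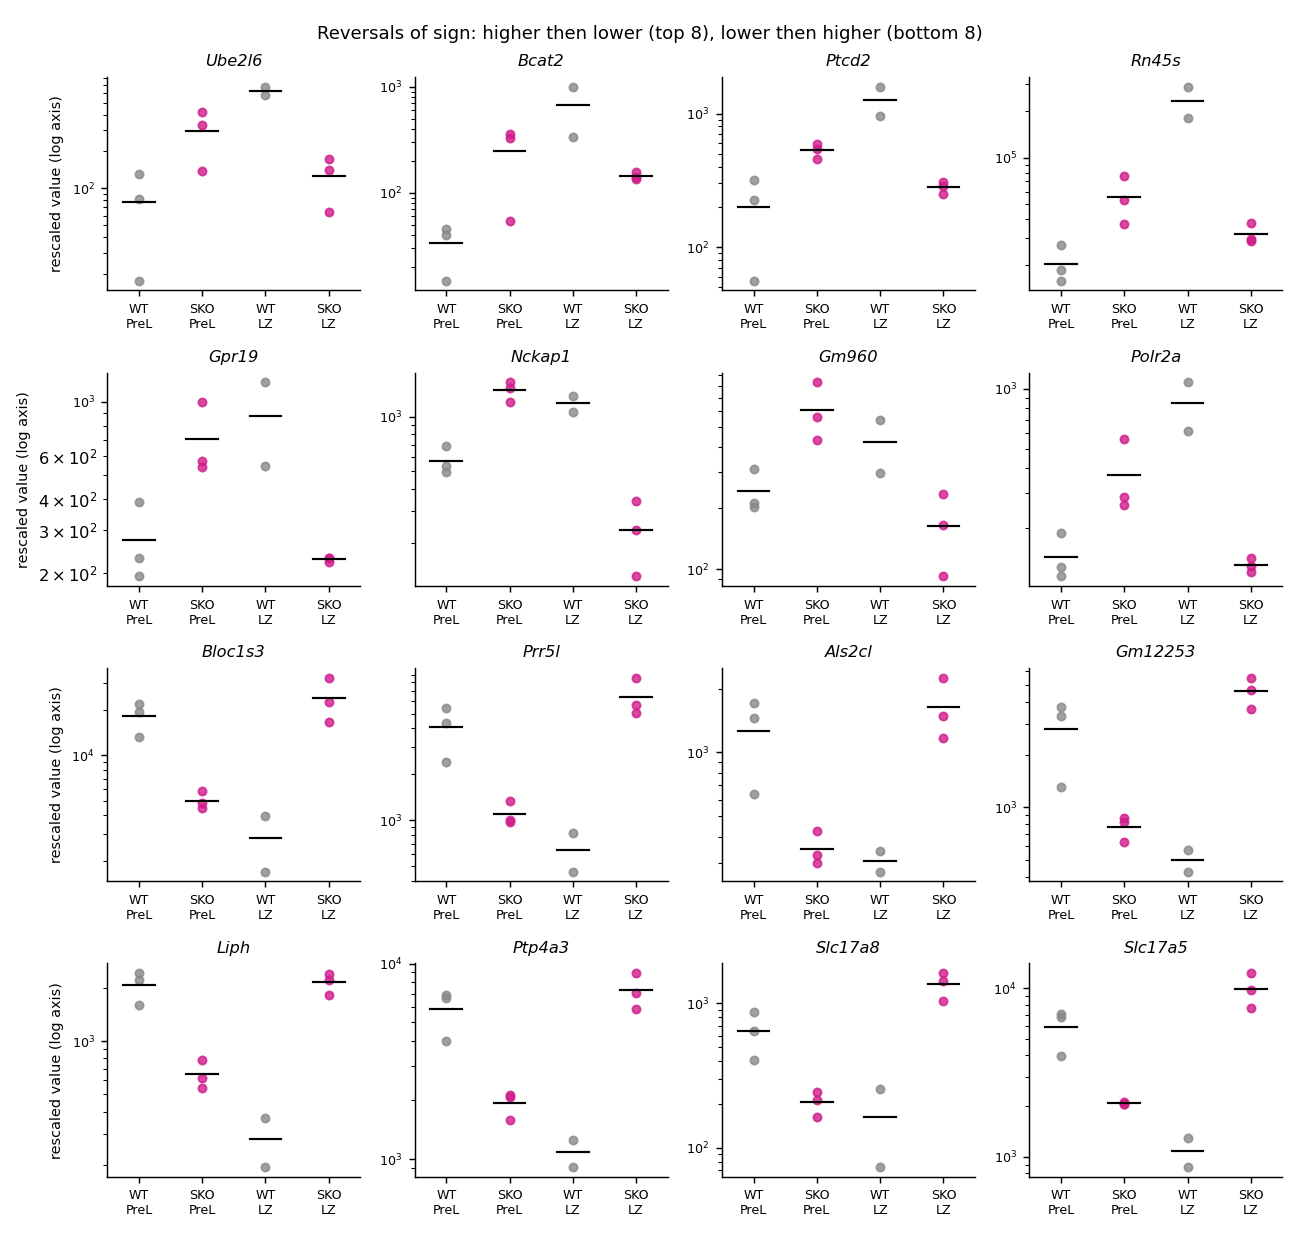
Rescaled values (log axis) of the 16 named reversals in each library of WT PreL, SKO PreL, WT LZ and SKO LZ, with a bar at the group mean. In the top 8 genes SKO (pink) lies above WT (grey) in PreL and below it in LZ, and in the bottom 8 the order is the other way round.

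Genes that went from lower to higher had median effects of -1.22 in PreL and 2.73 in LZ. In 42 of the 55 the WT estimate between the stages was below -1 and the SKO estimate above 1. *Bloc1s3* (chromosome 7, 19504486 to 19508367), a subunit of the BLOC-1 complex of lysosome-related organelles, had 13300, 19440 and 21900 in WT PreL and 4791, 4431 and 5759 in SKO PreL. In LZ it had 1688 and 3927 in WT and 32740, 16600 and 22560 in SKO. Both stages separated the genotypes widely, and the effects of -1.84 and 3.16 gave an interaction of 5.0 (SE 0.45, adjusted p = 3.84e-06). *Prr5l* (chromosome 2, 101714285 to 101883027), a partner of mTORC2, had 2425, 4363 and 5447 in WT PreL, 980.4, 1008 and 1334 in SKO PreL, 462.8 and 824.7 in WT LZ, and 8584, 5053 and 5722 in SKO LZ. Its effects were -1.81 and 3.32, and the interaction was 5.13 (SE 0.45, adjusted p = 3.05e-06). Among the 8 named reversals of this kind, *Bloc1s3* and *Prr5l* were called without rescaling and the other 6 were not.

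*Slc17a5* (chromosome 9, 78536488 to 78588041), sialin, exports sialic acid from lysosomes. It had 3954, 6815 and 7051 in WT PreL and 2069, 2053 and 2121 in SKO PreL, then 870.1 and 1290 in WT LZ and 12340, 7679 and 9743 in SKO LZ. The groups did not overlap in either stage, and the interaction was 4.65 (SE 0.35, adjusted p = 1.72e-06), from effects of -1.46 and 3.19. *Slc17a8*, the vesicular glutamate transporter VGLUT3, had an interaction of 4.71 (SE 0.60). *Liph*, a phosphatidic acid lipase, had 4.62 (SE 0.37), *Ptp4a3*, a PRL phosphatase, 4.30 (SE 0.34), *Als2cl* 4.04 (SE 0.51) and the predicted gene *Gm12253* 4.89 (SE 0.48). *Ptchd1* (X chromosome, 155573455 to 155623814), a patched domain protein, was the X-linked member, with 480.3, 710.2 and 734.3 in WT PreL, 296.3, 315.2 and 281.5 in SKO PreL, 161.5 and 177.1 in WT LZ and 3711, 2414 and 2948 in SKO LZ. The order of the genotypes turned over without overlap, and the interaction was 5.12 (SE 0.34, adjusted p = 1.42e-06).

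The shared 20 bases shown above recurred among these genes. With up to 2 mismatches 16 of 54 (29.6%) held them in the sense strand, among them *Bloc1s3*, *Prr5l*, *Slc17a5*, *Als2cl* and *Gm12253*. For the 28 with an LZ effect above 2.5 and annotated transcripts the number was 13 (46.4%), and in the reversals from higher to lower it was 1 of 45 (2.2%). Leaving such genes out on either strand left 37 reversals from lower to higher and 40 from higher to lower. The count of 55 also moved with single WT PreL libraries, to 100 without replicate 1, 34 without replicate 2 and 33 without replicate 4.

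The direction of the interaction in somatic cell genes depended on which libraries were kept. Sertoli cell genes had median effects of 2.18 in PreL and 0.59 in LZ, and Leydig cell genes 2.67 and 1.65. Of these, 2 of 17 (11.8%) and 3 of 13 (23.1%) were more negative and none more positive. Over all genes the shares were 20.8% and 11.7%, so the counts of more negative genes lay below or near the share of all genes. *Insl3*, a Leydig cell hormone, had 0, 25.57 and 2.949 in WT PreL and 600.1, 502.9 and 161.3 in SKO PreL, with 134.5 and 80.05 in WT LZ and 78.36, 170.1 and 283.4 in SKO LZ. It was higher in SKO in PreL alone (effects 4.5 and 0.55), with an interaction of -3.95 (adjusted p = 0.00513). With neither WT LZ replicate 2 nor SKO PreL replicates 1 and 2, the median interaction was 1.38 in Sertoli genes and 1.05 in Leydig genes. The interaction of *Insl3* was -2.40. This setting kept every SKO LZ library, where Sertoli genes held 1399 to 1979 RPM. The libraries left beside them held 764.5 RPM in WT LZ and 165.1 RPM in SKO PreL. The positive Sertoli median therefore follows from which libraries were left out. In that setting single SKO PreL and WT LZ libraries are taken to vary like the other groups. Of the macrophage genes, 2 of 16 (12.5%) were more negative and 2 (12.5%) more positive (5 and 1 without rescaling), and of the endothelial genes none of 3 was called. Peritubular myoid genes had 1 of 5 and fibroblast genes 1 of 12 more negative, and undifferentiated spermatogonia genes 1 of 17 more positive, *Pou3f1*, with none without rescaling or without WT LZ replicate 3.

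On the X chromosome the shares of calls lay outside the range of the autosomes. Of 546 tested on the X chromosome, 24 (4.4%) were more negative and 102 (18.7%) more positive, whereas the autosomes ranged from 18.3% to 28.0% more negative and from 9.2% to 13.4% more positive. Without rescaling the X-linked shares were 19.4% and 5.9%, against 41.2% to 50.5% and 3.8% to 5.8% on the autosomes, so the direction that most X-linked calls took depended on the scaling. The median X-linked effect was 0.23 in PreL and 0.71 in LZ on rescaled values. *Dkc1*, the pseudouridine synthase dyskerin, had 4317, 4414 and 4951 in WT PreL and 4220, 4253 and 4548 in SKO PreL, which overlapped. In LZ it had 1972 and 2236 in WT against 8911, 6538 and 7607 in SKO (interaction 1.92, SE 0.21, adjusted p = 1.44e-05), and 1.02 without rescaling. Chromosome 17 had the largest share of more negative genes (28.0%), followed by chromosome 8 (25.6%) and chromosome 15 (25.1%).

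**Figure D5:**
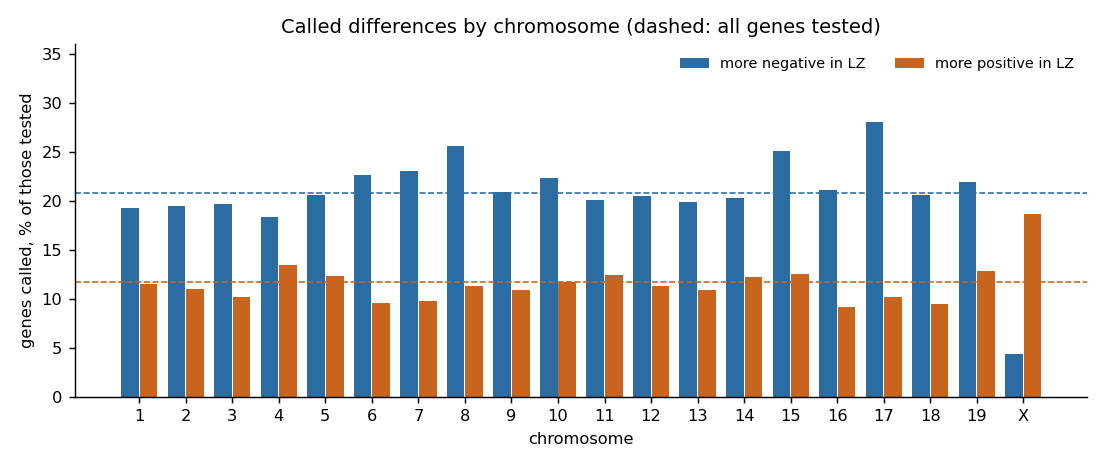
Percentage of the genes tested on each chromosome that were called more negative (blue) or more positive (orange) in LZ, with dashed lines at 20.8% and 11.7%, the shares over all genes. On the X chromosome 4.4% were more negative and 18.7% more positive (19.4% and 5.9% without rescaling), and each autosome had more genes in the negative direction.

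Transcript length and base composition moved with the calls. In the longest quintile of transcripts 13.7% of genes were more negative and 17.2% more positive, against 25.1% and 7.6% in the second shortest quintile. Median length was 1227 bases in the more negative genes, 1802 in the more positive genes and 1380 over all genes tested. By GC content, the lowest quintile had 15% more negative genes and the fourth quintile 25.6%. With both trends removed from the log2 values of each library before the fit, 2823 genes were more negative and 1487 more positive. The part of these trends in single genes was not tested further.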

How the data were processed

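The deposited signal values were, per the labels and the study's methods, gene counts calibrated by the authors with the ERCC spike-in and the number of cells, from unstranded paired-end Smart-seq2 reads. The submitters' processing notes name TopHat2 2.1.1, HTSeq 0.11.2, Cufflinks 2.2.1, DESeq2, mm10 and mm9, with no role for mm9. Every library column was divided by its smallest value above 0, which gave whole reads for 100% of values within 0.01 reads, so the calibration is 1 factor per library. Depth was 5812380 to 13820953 reads.

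The 17 libraries and their 6 groups were taken from the labels, and the 11 of PreL and LZ entered the fit. The deposited values were rescaled by median of ratios, log2(value + 10) was fitted with limma-trend (limma 3.58.1, R 4.3.3) for genes with a mean of 10 or more reads, and the interaction was tested as 1 contrast. edgeR 4.0.16 and DESeq2 1.42.0 were run on the reads as alternatives. The fit was tested on simulated data. Symbols were matched to GENCODE vM21 (GRCm38/mm10): 20857 directly, 1941 through an older symbol and 484 not at all. Sequences and transcript lengths are from those transcripts. No pair of libraries was a duplicate (chi-square per degree of freedom 5.88 to 62.38 within groups).

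Genes were named by rule: *Nat10*, the 6 largest interactions in each direction with a mean of 100 reads or more and no overlap in LZ, the 8 reversals in each direction with the largest smaller effect, and up to 4 called members of each of 40 gene lists, besides cell type markers. The results of 2 of these genes are not reported here. Of the list members, 17 are not in the table used here. The comparison, the lists and the rule were chosen with earlier results of these data known. Alternatives covered scaling, pseudocount, filters, test, depth, the replicate block and leaving out each library. 3 more were chosen after seeing the data: trends of GC content and length removed, the Sertoli-rich libraries left out, and genes with the shared 20 bases left out.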

Additional observations from a re-analysis of the deposited data

Results flagged for a closer look

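Each result here was flagged as a genotype effect that differed between the stages by the test of the interaction itself (limma-trend, adjusted p-values given with each gene in the report). These are the 2830 genes with a more negative and the 1589 with a more positive effect in LZ, and the 47 and 55 reversals of sign.

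Among genes with a mean of 100 or more reads and no overlap in LZ, the most negative interactions included -5.59 for *Dnali1*. *Phkg2* had -5.57, *Rsph6a* -5.43, *Qrich2* -5.38 and *4930525F21Rik* -5.35. *Dnali1*, *Rsph6a* and *Qrich2* stayed at 3 reads or fewer in every SKO LZ library, so their values depend on the pseudocount and are no bounds. Among the most positive by the same rule, *Ptk6* and *F630042J09Rik* had 5.52 each, *Prr5l* 5.13, *Ptchd1* 5.12, *Gje1* 5.02 and *Bloc1s3* 5.0.

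Reversals from higher in SKO PreL to lower in SKO LZ had interactions of -4.28 for *Ube2l6*, -4.23 for *Bcat2*, -3.75 for *Ptcd2*, -4.27 for *Rn45s*, -3.14 for *Gpr19*, -3.66 for *Nckap1*, -2.61 for *Gm960* and -3.80 for *Polr2a*. All 47 kept opposite signs in each of the 25 refitted alternatives that tested them, and 3, *Rn45s*, *1190005F20Rik* and *C920006O11Rik*, kept the full call in each. In the other direction, *Als2cl* had 4.04, *Gm12253* 4.89, *Liph* 4.62, *Ptp4a3* 4.30, *Slc17a8* 4.71 and *Slc17a5* 4.65, beside *Bloc1s3* and *Prr5l*. All 55 kept opposite signs in each alternative that tested them, and 4, *Bloc1s3*, *Prr5l*, *Apol6* and *Dsg2*, kept the full call in each. *1190005F20Rik*, *C920006O11Rik*, *Apol6* and *Dsg2* were named after their values were seen.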

How the results depend on the processing

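Of 26 alternatives, the scaling moved the counts of more negative and more positive genes by the largest ratios. On the ERCC-calibrated values without rescaling, 6034 genes were more negative and 706 more positive, with 539 reversals from higher to lower and 6 from lower to higher. Rescaling therefore decides how many genes are called in each direction, and the cell input behind the calibration was not tested. A pseudocount of 50 gave 29 and 35 reversals, thinning to the smallest library gave 31 from higher to lower, and no fold threshold gave 115 and 274. Leaving out each library in turn gave 1868 to 2993 more negative and 1473 to 1604 more positive genes, with 22 to 56 and 33 to 100 reversals. The lowest count of more negative genes came without WT LZ replicate 3, after which WT LZ holds 1 library that is assumed to vary like the other groups.

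With neither WT LZ replicate 2 nor SKO PreL replicates 1 and 2, 31 genes went from higher to lower, 9 of them among the 47, and 37 from lower to higher, 21 of them among the 55. The median interaction of the 17 Sertoli cell genes went from -1.51 to 1.38. Every SKO LZ library was kept, with 1399 to 1979 RPM of Sertoli genes, against 165.1 RPM in SKO PreL replicate 3. That change of sign therefore follows from which libraries were left out. Of the named genes, 3 changed sign. The interaction was 0.35 for *Inha*, 1.05 for *Clu* and 1.90 for *Cldn11*, and the PreL effect of *Cldn11* was -0.13. The same limit applies to *Clu* and *Cldn11*, which are Sertoli cell markers.

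Whole reads allowed count tests: edgeR called 2220 more negative and 1650 more positive genes and DESeq2 2628 and 1635. The replicate numbers were not taken to pair the libraries, since nothing says that they mark a shared source. Deviations from the group means correlated by -0.18 to 0.41 over 12 pairs with the same number (median 0.075). Over 33 pairs with different numbers they correlated by -0.41 to 0.26 (median -0.01). The WT LZ libraries deviate from their mean by equal and opposite amounts, so these ranges are tied and cannot decide the pairing. With the number as a replicate block, 2447 and 1461 genes were called, with 40 and 39 reversals, which included 23 of the 47 and 32 of the 55. For the named genes, 4879 interaction values under the alternatives kept their direction and side of the threshold, 293 lost and 52 gained the call, and 3 changed sign. SKO LZ has the fewest reads, so genes at or under 3 reads there give lower bounds only.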

Other observations

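Genes of translation outside the ribosome gave interactions in both directions. *Wars2*, the mitochondrial tryptophanyl-tRNA synthetase (chromosome 3, 99141068 to 99239186), had 1038, 1523 and 1781 in WT PreL and 1000, 572.4 and 710.6 in SKO PreL. In LZ the values were 296 and 300.8 in WT and 3840, 2193 and 2926 in SKO. SKO was the lower group in PreL, where the effect of -0.92 was not called, and the higher one in LZ without overlap, and the interaction was 4.16 (SE 0.39, limma adjusted p = 5.16e-06). Its transcripts hold the shared 20 bases. *Lars2*, the mitochondrial leucyl-tRNA synthetase (chromosome 9, 123366927 to 123462666), had 7388, 4772 and 3433 in WT PreL and 9582, 14080 and 17970 in SKO PreL, then 20160 and 23700 in WT LZ and 15350, 10970 and 10360 in SKO LZ. Its order was the opposite one, with an effect of 1.44, called, in PreL and -0.86, not called, in LZ (interaction -2.30, SE 0.41, limma adjusted p = 0.000894).

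*Eif5a*, the factor that relieves stalled ribosomes, had 27020 and 25420 in WT LZ and 9040, 7784 and 7466 in SKO LZ, with an interaction of -2.24 (SE 0.37). *Eef2k*, the kinase that inhibits elongation factor 2, had 410.8 and 359 in WT LZ and 1631, 1264 and 1270 in SKO LZ, with an interaction of 2.38 (SE 0.33), and its exons overlap *Gm15774*. Among readers of N6-methyladenosine, *Igf2bp3* had an interaction of -1.68 (SE 0.38), and that of *Ythdf1* was 1.29 (SE 0.21), which was 0.39 and not called without rescaling.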
